A study of Rattus norvegicus with 14 samples.

Results

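All hippocampal libraries from rats given pentylenetetrazole (PTZ) were set as one group of 10 against the 4 libraries from control rats, to describe what PTZ exposure changed whether or not Q808 was given as well. The 10 were chosen by treatment label alone, out of 14 libraries in the series, and no measured value was used to choose them. PTZ is a convulsant that blocks the chloride channel of GABA-A receptors. For Q808 the labels give the code name alone. All rats were wild-type Wistar animals weighing 180 to 220 g. Control rats received vehicle (n = 4). Rats of the PTZ group received PTZ and vehicle (n = 5), and rats of the PTZ+Q808 group received PTZ and Q808 (n = 5). No group received Q808 without PTZ, so an effect of PTZ and an effect of PTZ with Q808 are both part of the pooled group. The sources used here give no age, sex, dose, route or interval between injection and sampling. The design text says that rats were randomised, and no label says that each library came from a separate animal, so the p-values measure the spread between these samples.

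Strong neuronal firing opens calcium channels and NMDA receptors, and the calcium signal reaches transcription factors such as CREB and SRF that are already present in the nucleus. These switch on immediate early genes within minutes and without new protein synthesis. Many early genes encode transcription factors (Fos, Egr and Nr4a families, Npas4), and others encode effectors at synapses, phosphatases that close the MAP kinase signal, growth arrest factors or proteins that speed the decay of early mRNAs. In the hippocampus seizures are a classical inducer of this programme in granule and pyramidal neurons, and cells of vessels and glia have early genes of their own.

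Each library held 22601 genes with a summed FPKM of 383126 to 419358, and Spearman correlations across genes between libraries ran from 0.980 to 0.988. The hippocampal label was checked against subfield markers, and summed FPKM was 298 to 447 for 8 CA1, 83.0 to 146 for 7 CA3 and 114 to 164 for 7 dentate granule markers over the 14 libraries. Tissue other than hippocampus was unevenly present. The summed level of 12 striatal markers was 800 FPKM in control 2 and 70.3 to 143 in the other 13. The choroid plexus gene Ttr was low in control 3 (54.5 FPKM), PTZ 2 (113) and PTZ+Q808 1 (329) against 1315 to 7125 elsewhere, while Otx2 of the same marker list was at 0 in every library. Pituitary markers summed to 687 FPKM in PTZ+Q808 3, and meningeal markers to 328 FPKM in PTZ 1. The growth hormone gene Gh1 was 206 FPKM in PTZ+Q808 3.

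PTZ exposure went with 14 higher and 5 lower transcripts. Calls were made in limma at an adjusted p under 0.05 (Benjamini-Hochberg over the 12744 genes that reached 1 FPKM in at least 4 libraries). The 14 genes that rose, 0.11% of the genes tested, include Apold1, Cyr61, Dusp1, Tmem252, Maff, Zfp36, Nfkbia, Gabrb2, Eea1, Rb1cc1, Rock2, Bclaf1 and Rasa1. The 5 that fell, 0.0392% of the genes tested, include Sox9, Hhex, Slc25a1 and RGD1562618. Together the calls made up 0.149%. They formed 2 sets by size. The first 7 genes named rose by 0.92 to 2.39 on the log2(FPKM + 1) scale and include early response genes, feedback inhibitors and vascular genes. The other 7 rose by 0.34 to 0.51 and include a GABA-A receptor subunit gene and regulators of the cytoskeleton, autophagy and endosomes.

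For 18 of the 19 called genes all 10 exposed libraries lay outside the range of the 4 controls, and Tmem252 was the exception. Over all genes tested, the groups did not overlap for 193, or 1.51%, split into 97 higher (0.761%) and 96 lower (0.753%) in the exposed group. The count was 496 without control 2, 352 without control 3, 340 without control 4 and 346 without PTZ 3. Leaving out a library cannot widen a group's range, so for the same genes this count can only stay or rise. Unadjusted p was under 0.05 for 2136 genes (16.8%), 1067 higher (8.37%) and 1069 lower (8.39%). These shares over all genes are the background for the counts of every gene list below. At an adjusted p under 0.10, 111 genes were higher (0.871%) and 42 lower (0.33%). Changes across the transcriptome were small, with a median absolute log2 change of 0.09, a median standard error of 0.08 and a median signed change of -0.02. Control 1 was the library on which the calls depended most. Without it 4 genes passed, and without control 3, control 4, PTZ 2 or PTZ+Q808 1 the counts were 6, 9, 11 and 12. Without PTZ 1 or PTZ 3 they were 106 and 134. Without the 3 libraries low in Ttr (control 3, PTZ 2 and PTZ+Q808 1) 4 genes passed, among them Apold1, Cyr61 and Nfkbia, and the values of the other genes without these libraries stand beside each call.

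Pooling joined groups that differed by Q808, and the difference between them was tested in the same values. PTZ+Q808 and PTZ differed for 0 of 12744 genes in limma (smallest adjusted p = 0.622), with 783 genes (6.14%) at an unadjusted p under 0.05. Among the 19 called genes, 3 had an unadjusted p under 0.05 between the exposed groups and the smallest adjusted p was 0.76. The largest absolute difference among the 19 was 0.35 on the log2 scale, for Cyr61.

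**Figure D1:**
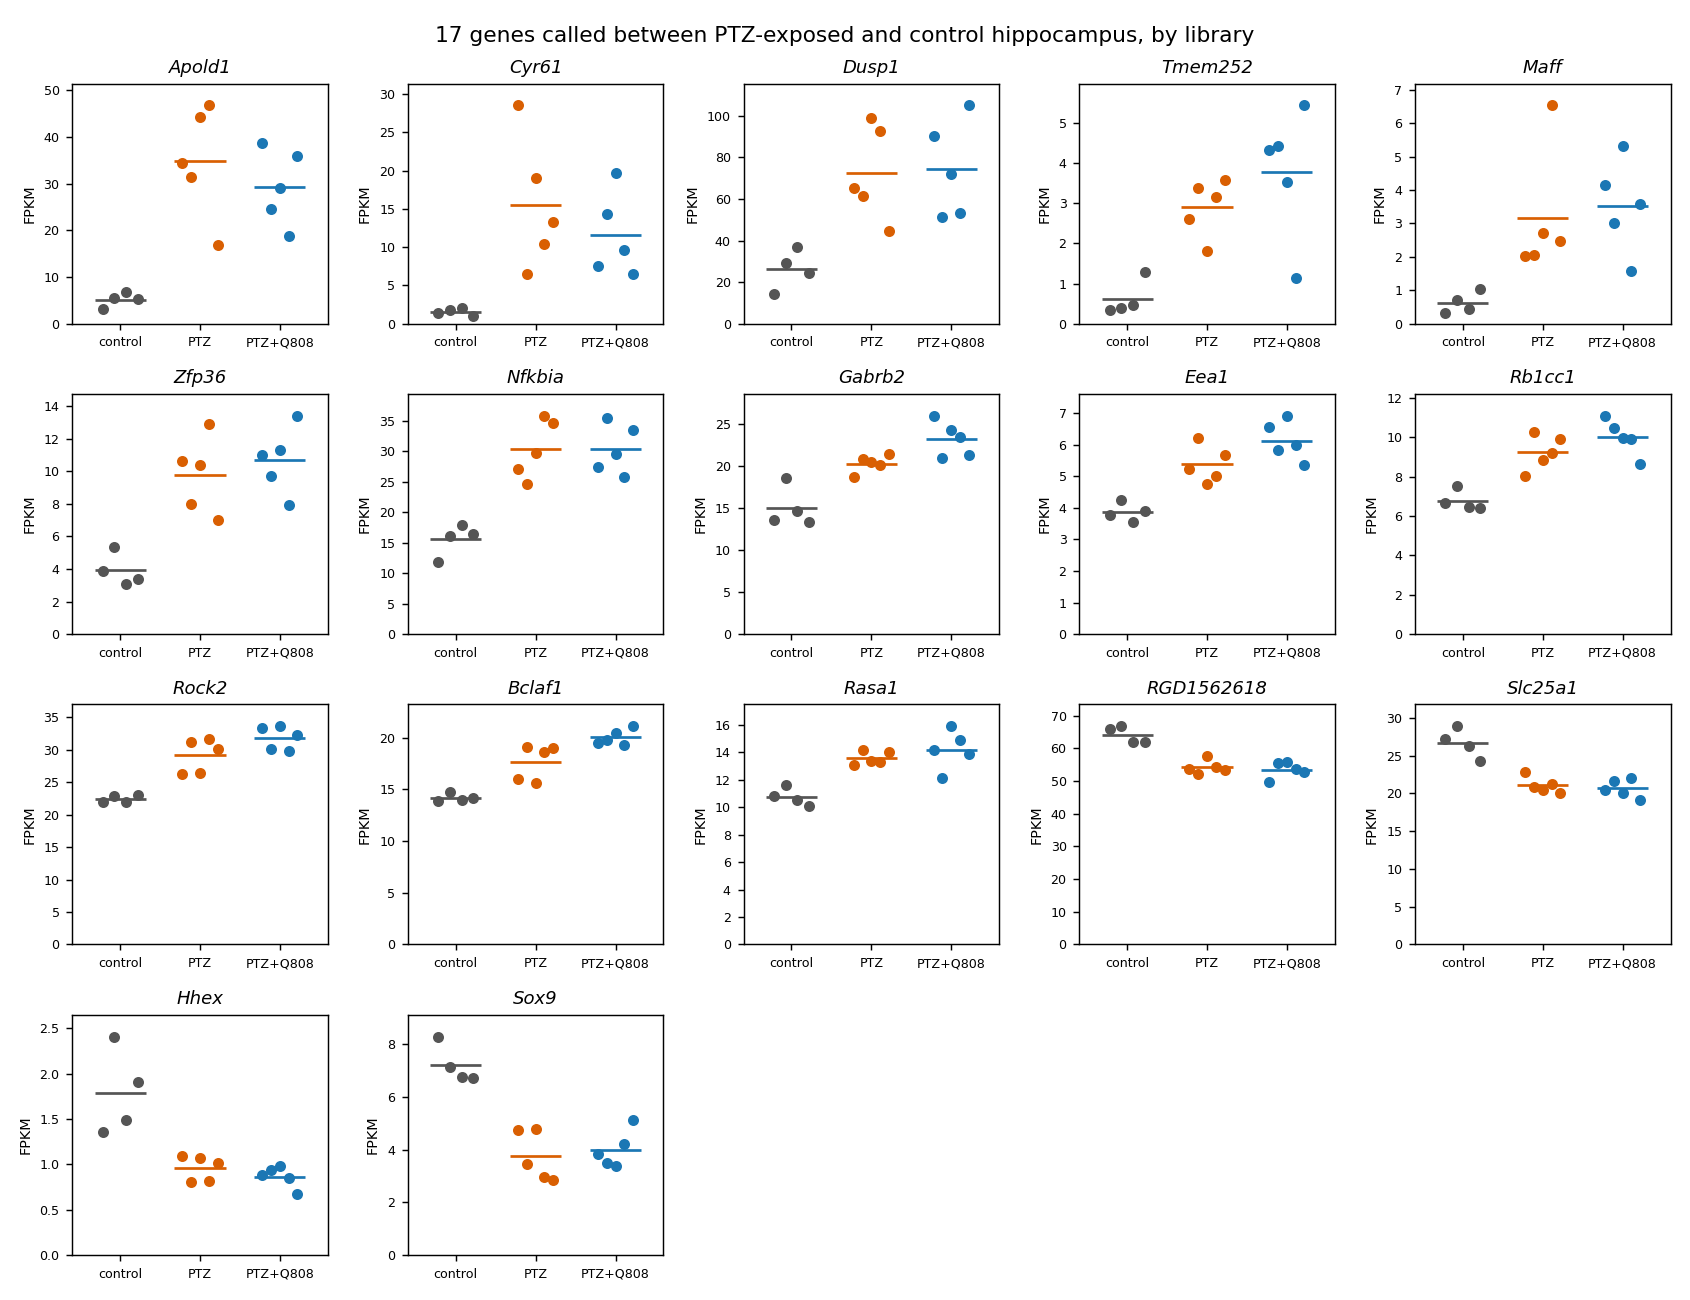
FPKM of 17 called genes (y axes, from 0, a separate scale for each gene) in the control, PTZ and PTZ+Q808 groups (x axes). Each point is a library and each bar a group mean; for 16 genes all 10 exposed points lie to one side of all 4 control points, and for Tmem252 the lowest exposed library (1.13) lies under the highest control (1.28).

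The upstream sequences of the early response genes that rose are shown first, since CREB, SRF and EGR proteins are known to bind near the start of early genes. Sequences are from RefSeq (build GRCr8), cover the 250 bases before the annotated start and are written 5′ to 3′ on the strand of the gene. Capitals mark matches to a CRE, the site of CREB (letters TGACGTCA), to an EGR site (GCGGGGGCG), to a CArG box, the site of SRF, or to an NF-kB site. Motifs were searched on both strands, and the CRE reads the same on both. In Zfp36 the capitals mark an EGR site at bases 79 to 71 and a CArG box at bases 32 to 23 before the start. In Dusp1 they mark a CRE at bases 124 to 117, in Maff a CRE at bases 51 to 44 and in Nfkbia an NF-kB site on the opposite strand at bases 31 to 22. Apold1 and Cyr61 (Ccn1 in RefSeq), the called genes with the largest rise, held none of these and are printed without capitals.
Zfp36, chr1:92799109-92799358, minus strand: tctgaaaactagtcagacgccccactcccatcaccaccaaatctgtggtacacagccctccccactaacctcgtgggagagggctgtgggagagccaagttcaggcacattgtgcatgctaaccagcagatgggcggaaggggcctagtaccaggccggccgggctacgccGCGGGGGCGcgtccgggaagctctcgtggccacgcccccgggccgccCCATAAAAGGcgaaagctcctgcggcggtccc
Dusp1, chr10:17184603-17184852, plus strand: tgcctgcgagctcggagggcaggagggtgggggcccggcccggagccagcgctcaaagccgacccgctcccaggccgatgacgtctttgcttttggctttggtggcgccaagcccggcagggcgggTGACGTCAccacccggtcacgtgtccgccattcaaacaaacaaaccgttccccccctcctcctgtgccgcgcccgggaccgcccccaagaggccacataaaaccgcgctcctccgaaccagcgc
Maff, chr7:112792537-112792786, plus strand: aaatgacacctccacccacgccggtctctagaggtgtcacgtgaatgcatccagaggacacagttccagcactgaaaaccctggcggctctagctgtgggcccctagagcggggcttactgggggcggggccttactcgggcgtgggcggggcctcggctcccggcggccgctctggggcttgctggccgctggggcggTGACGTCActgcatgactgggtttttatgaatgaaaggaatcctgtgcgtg
Nfkbia, chr6:78597073-78597322, minus strand: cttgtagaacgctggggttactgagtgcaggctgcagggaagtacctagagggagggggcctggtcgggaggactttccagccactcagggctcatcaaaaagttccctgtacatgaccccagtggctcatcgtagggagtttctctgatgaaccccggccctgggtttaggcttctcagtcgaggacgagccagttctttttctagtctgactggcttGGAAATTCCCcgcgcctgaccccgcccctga
Apold1, chr4:169552349-169552598, plus strand: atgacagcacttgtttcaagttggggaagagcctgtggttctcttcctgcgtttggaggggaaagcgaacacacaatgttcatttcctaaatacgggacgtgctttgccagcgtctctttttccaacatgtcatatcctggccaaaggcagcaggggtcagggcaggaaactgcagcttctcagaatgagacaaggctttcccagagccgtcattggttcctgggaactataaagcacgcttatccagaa
Cyr61, chr2:237225690-237225939, minus strand: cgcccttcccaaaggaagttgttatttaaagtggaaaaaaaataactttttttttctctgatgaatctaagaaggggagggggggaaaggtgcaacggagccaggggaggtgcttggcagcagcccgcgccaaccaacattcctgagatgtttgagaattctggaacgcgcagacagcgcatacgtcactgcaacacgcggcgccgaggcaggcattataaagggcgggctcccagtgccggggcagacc

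Of the 7 genes that rose by 0.92 or more, 2 held a CRE, 1 an EGR site, 1 a CArG box and 1 an NF-kB site. Among 10234 upstream sequences of tested genes the same motifs were found in 2.87%, 5.04%, 1.12% and 4.09%. The AP-1 site TGACTCA, held by 2.95% of all sequences, was in 0 of the 7. The shorter core TGACG, which lies inside the CRE, was in 4 of the 7 and in 28% of all sequences. In Apold1 the core stood at bases 42 to 38 and in Cyr61 at bases 67 to 63, on the opposite strand in both. Over 79 genes of the early response lists with an upstream sequence, 10 held a CRE, 10 an EGR site, 7 an NF-kB site, 4 a CArG box and 1 an AP-1 site. Sequences for Rb1cc1 and Sox9 were not matched. A match describes letters in this window and says nothing of binding in these samples.

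Apold1 encodes an endothelial protein whose transcript responds to activity and hypoxia (gene identifier 444983). It was 3.07, 5.44, 6.78 and 5.36 FPKM in controls 1 to 4. In the 10 exposed libraries it ran from 16.8 to 46.7 FPKM with a median of 32.9. The lowest exposed value, in PTZ 5, was above the highest control, and the log2 change was 2.39 ± 0.24 (SE, adjusted p = 0.000611), the smallest p of all genes tested. The ratio of mean FPKM was 6.21.

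Cyr61 encodes a secreted matricellular protein that binds integrins and is a classical early gene of vessel and connective tissue cells (83476). Controls held 1.44, 1.74, 2.01 and 0.983 FPKM. The exposed libraries held 6.44 to 28.5 FPKM with a median of 11.8, and every one was above all controls. The log2 change was 2.39 ± 0.32 (SE, adjusted p = 0.0048) and the ratio of mean FPKM was 8.78. PTZ 1, the library with the highest Cyr61, also had the highest summed level of meningeal markers. Without PTZ 1 the change was 2.26 (adjusted p = 0.00307).

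Zfp36 encodes tristetraprolin, which binds AU-rich elements and speeds the decay of early response and cytokine mRNAs (79426). It was 3.87, 5.35, 3.08 and 3.39 FPKM in controls and 6.99 to 13.4 FPKM, median 10.5, in exposed libraries. The groups did not overlap, with PTZ 5 lowest and PTZ+Q808 5 highest among the exposed. The log2 change was 1.19 ± 0.15 (SE, adjusted p = 0.00418). Of 10 AU-rich element binding proteins tested, 8 had positive values with a median of 0.15, and Zfp36 was the 1 called. The neuronal stabilising proteins of the Elav family did not pass, with log2 changes of 0.36 for Elavl4 (adjusted p = 0.0788) and 0.24 for Elavl2 (adjusted p = 0.18).

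Nfkbia encodes IkB-alpha, which holds NF-kB in the cytoplasm and is itself a target of NF-kB (25493). Controls held 11.8, 16.1, 17.9 and 16.4 FPKM and exposed libraries 24.6 to 35.8 FPKM, median 29.6. All 10 exposed libraries were above all controls, and the spread among them was narrow (SD 4.18 FPKM around a mean of 30.3). The log2 change was 0.92 ± 0.11 (SE, adjusted p = 0.00364). In a list of 13 NF-kB subunits and inhibitors, 6 values were positive, the median was -0.002 and Nfkbia was the 1 called. The atypical inhibitor Nfkbiz had a value of 0.37 (adjusted p = 0.114) and the subunit Rel 0.31 (adjusted p = 0.2). No control reached 1 FPKM for either (highest 0.742 and 0.969), so both passed the filter through exposed libraries alone.

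Apold1, Cyr61, Zfp36 and Nfkbia stayed under the threshold when each of the 14 libraries was left out in turn, with highest adjusted p of 0.00577, 0.0395, 0.0328 and 0.0186. Without the 3 libraries low in Ttr, Zfp36 had an adjusted p of 0.0656. Without control 2, control 3, PTZ 2, PTZ+Q808 1 and PTZ+Q808 3 together, 2 controls and 7 exposed libraries were left and 0 genes passed in limma, with 873 at an unadjusted p under 0.05. The log2 changes were then 2.59 for Apold1, 2.69 for Cyr61, 1.26 for Zfp36 and 1.12 for Nfkbia.

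Dusp1 encodes a nuclear phosphatase that inactivates MAP kinases (114856). Control values were 14.5, 29.0, 36.8 and 24.2 FPKM, and exposed values ran from 44.5 to 105 FPKM with a median of 68.6. The groups did not overlap, and control 1 was the lowest of all libraries. The log2 change was 1.47 ± 0.24 (SE, adjusted p = 0.0243). The call ended without control 1 or control 4 (adjusted p 0.0902 to 0.16). It also ended without the 3 Ttr-low libraries (1.64, adjusted p = 0.118) and without the 5 libraries just named (1.83, adjusted p = 0.38). Among 13 MAP kinase phosphatase and Sprouty family genes, 10 values were positive with a median of 0.18, and Dusp1 was the 1 called. The ERK phosphatase gene Dusp6 was above all controls in 10 of 10 exposed libraries (24.0 to 61.7 FPKM against 17.6 to 22.7) with a log2 change of 0.88 that did not pass (adjusted p = 0.0788). Errfi1, which encodes an inhibitor of EGF receptor kinase, was also above all controls in 10 of 10 (0.80, adjusted p = 0.0548) and passed without PTZ 1, PTZ 3 or PTZ+Q808 4 (adjusted p 0.0164 to 0.0393).

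Maff encodes a small Maf transcription factor without a transactivation domain (366960). It was scarce in controls, at 0.323, 0.701, 0.446 and 1.04 FPKM, and 1.59 to 6.53 FPKM, median 2.87, in exposed libraries. The groups did not overlap, PTZ 4 was highest, and the log2 change was 1.36 ± 0.24 (SE, adjusted p = 0.0299). The call ended without any 1 of the 4 controls and without PTZ+Q808 1, PTZ+Q808 2 or PTZ+Q808 5 (adjusted p 0.0526 to 0.177). It also ended with no filter on low values. Among controls Maff reached 1 FPKM in control 4 alone, so it met the filter only with exposed libraries. Without the 3 Ttr-low libraries the adjusted p was 0.229 and without the 5 it was 0.67. The ratio of mean FPKM was 5.35, and with a pseudocount of 0.1 in place of 1 the log2 change was 2.22.

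Tmem252 encodes a predicted transmembrane protein (361744). Controls 1 to 3 held 0.354, 0.4 and 0.471 FPKM and control 4 held 1.28. Exposed values ran from 1.13 to 5.44 FPKM with a median of 3.46, and 9 of 10 were above every control. PTZ+Q808 4 was the library inside the control range. The log2 change was 1.39 ± 0.24 (SE, adjusted p = 0.0289), and the call ended without control 1, control 2, control 3, PTZ 2 or PTZ+Q808 1 (adjusted p 0.0539 to 0.173). It also ended without the 3 Ttr-low libraries (adjusted p = 0.229), without the 5 (0.678) and with no filter on low values. Among controls Tmem252 reached 1 FPKM in control 4 alone, so it met the filter only with exposed libraries. With a pseudocount of 0.1 the log2 change was 2.29, and the ratio of mean FPKM was 5.34.

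Most early response genes with a large difference did not pass. In 8 lists of early response genes, 97 genes were tested, 88 had positive values and the median log2 change was 0.50, against -0.02 and 5690 positive values (44.6%) over all genes. Of the 97, 4 were called (Apold1, Cyr61, Dusp1 and Maff) and 16 were above all controls in every exposed library, where 0.11% and 0.761% of all genes tested were. The lists were chosen with earlier results of these data known, so these counts are no independent support. A log2 change over 1 was seen for 31 genes of the whole table, 18 of them in the early lists, and 6 of the 31 were called. The 25 that were not called had an SD over the exposed libraries of 0.44 to 2.37 (median 1.07), and the 6 called ones 0.28 to 0.68, against a median of 0.14 over all genes.

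**Figure D2:**
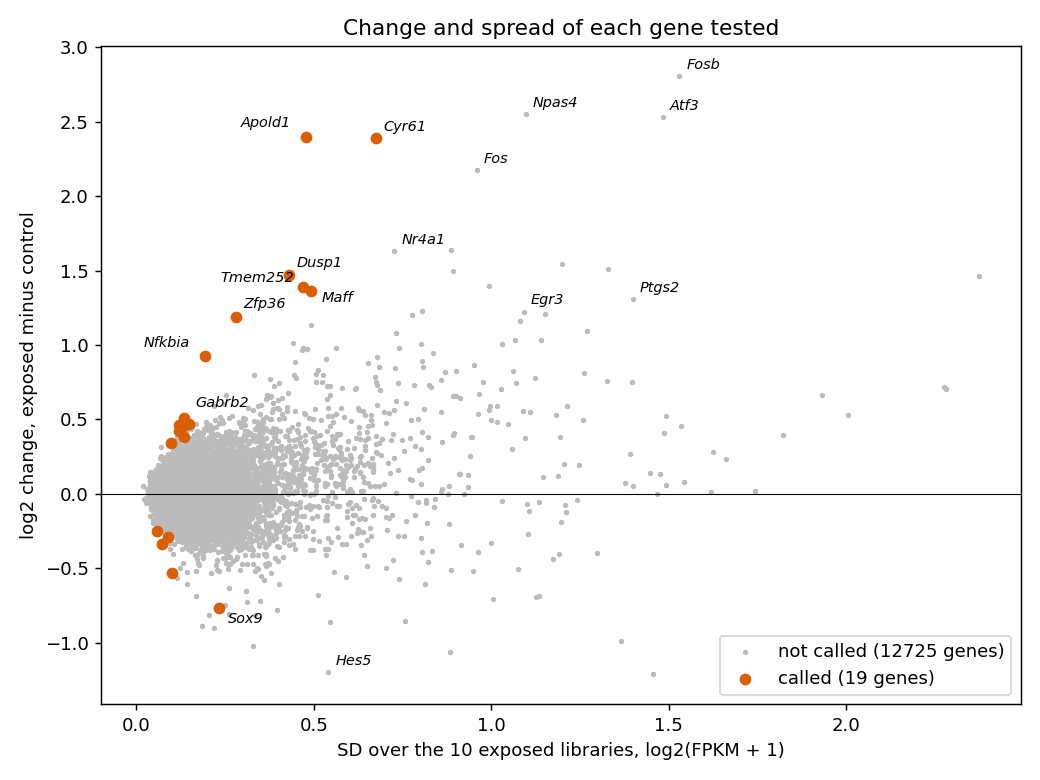
Log2 change between exposed and control libraries (y axis) against the SD over the 10 exposed libraries on the log2(FPKM + 1) scale (x axis), 1 point for each of 12744 genes, the 19 called ones in orange. Apold1 and Cyr61 (both 2.39) lie to the left of Fosb (2.81), Npas4 (2.55), Atf3 (2.53) and Fos (2.17), which had like or larger log2 changes and a larger SD.

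Fos, the AP-1 subunit most used as a mark of neuronal activity (314322), was 11.2, 13.3, 23.4 and 17.0 FPKM in controls. It was 62.8, 43.2, 113, 175 and 38.8 FPKM in PTZ 1 to 5 and 127, 38.2, 126, 27.0 and 142 FPKM in PTZ+Q808 1 to 5. All 10 exposed libraries were above all controls, yet the highest exposed value was 175 and the lowest 27.0. The log2 change of 2.17 ± 0.45 (SE) had an adjusted p of 0.0624, which fell under the threshold without PTZ 1, PTZ 3 or PTZ+Q808 4 (0.0386 to 0.047).

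Npas4, a neuron-specific factor induced by calcium entry, showed the same breadth. Controls held 3.10, 4.32, 5.17 and 4.05 FPKM and exposed libraries 6.64 to 62.4 FPKM, median 35.6, with no overlap. Its log2 change was 2.55 ± 0.50 (SE, adjusted p = 0.0548), and it passed without PTZ 1, PTZ 3, PTZ 5 or PTZ+Q808 4 (adjusted p 0.0164 to 0.0478). Fosb had the highest log2 change of all genes tested, 2.81 ± 0.70 (SE, adjusted p = 0.0984), from 3.65 to 6.45 FPKM in controls and 7.26 to 146 FPKM in exposed libraries. Atf3, a stress-induced bZIP factor, was 0.527 to 0.825 FPKM in controls and 1.98 to 40.2 FPKM in exposed libraries (2.53, adjusted p = 0.11). No control reached 1 FPKM, so Atf3 passed the filter through exposed libraries alone.

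All 12 AP-1 and other bZIP early factors tested had positive values (median 0.84), and Maff was the 1 called. Junb and Fosl2, further AP-1 subunits, had log2 changes of 1.40 (adjusted p = 0.169) and 0.98 (adjusted p = 0.185). Their ranges overlapped the controls in 2 exposed libraries for Junb and 1 for Fosl2. Crem, which encodes activators and repressors that bind the CRE, was above all controls in 10 of 10 exposed libraries with a value of 0.64 (adjusted p = 0.114).

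The zinc finger factors of the Egr family and the orphan nuclear receptors of the Nr4a family had the highest list medians and 0 called members in limma. Of 6 Egr and Nab genes 5 had positive values with a median of 1.21, and 4 had an unadjusted p under 0.05. Egr1 was 48.9, 66.4, 113 and 82.7 FPKM in controls and 89.1 to 336 FPKM, median 179, in exposed libraries, and 7 of 10 exposed were above the highest control. Log2 changes were 1.20 for Egr1, 1.54 for Egr2, 1.22 for Egr3 and 1.51 for Egr4 (adjusted p 0.154, 0.192, 0.238 and 0.234). All 3 Nr4a genes had an unadjusted p under 0.05 and a median of 1.23. Nr4a1 was 6.78 to 21.1 FPKM in controls and 17.8 to 75.3 FPKM in exposed libraries (1.63, adjusted p = 0.0755).

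Among 15 other early transcription factors 13 values were positive (median 0.37), with 0 called in limma and 8 higher at an unadjusted p under 0.05. The clock-linked repressor gene Bhlhe40 was above all controls in 10 of 10 exposed libraries (31.4 to 51.3 against 21.1 to 30.7 FPKM, log2 change 0.60, adjusted p = 0.0719) and passed without PTZ 1 (adjusted p = 0.0351). So was the Notch target Hes1 (7.09 to 9.33 against 5.63 to 7.04 FPKM, 0.33, adjusted p = 0.0719), which passed without PTZ 3 (adjusted p = 0.0433). Klf4, a zinc finger factor, was above all controls in 8 of 10 (0.97, adjusted p = 0.0799). Ier5l went the other way, at -0.43 (adjusted p = 0.143).

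Genes whose products act at synapses or are secreted held no called member. Of 24 activity effectors tested 23 had positive values, the median was 0.39, and 0 were called in limma (10 higher at an unadjusted p under 0.05). Arc, which traffics AMPA receptors, was 35.1, 54.0, 80.0 and 66.8 FPKM in controls and 33.1 to 235 FPKM in exposed libraries. It was above the highest control in 5 of 10 exposed libraries and under the lowest in 1, with a log2 change of 0.67 (adjusted p = 0.473). The neurotrophin gene Bdnf was above every control in 6 of 10 (0.82, adjusted p = 0.319), and Homer1, a scaffold of metabotropic glutamate receptors, in 8 of 10 (0.29, adjusted p = 0.223). Ptgs2, which encodes cyclooxygenase 2, was 9.75 to 11 FPKM in controls and 9.24 to 107 FPKM in exposed libraries (1.31, adjusted p = 0.314). Sik1, a CREB-linked kinase gene, was above every control in 9 of 10 (0.98, adjusted p = 0.0788) and passed without PTZ 5 (adjusted p = 0.0369).

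Exposed libraries differed in how many early genes lay above the controls. Of the 97 genes, 80 were above the highest control in PTZ 4, 78 in PTZ+Q808 3, 73 in PTZ+Q808 5 and 70 in PTZ+Q808 1. In PTZ 3, PTZ 1, PTZ 2, PTZ 5 and PTZ+Q808 2 the counts were 59, 54, 48, 47 and 46, and in PTZ+Q808 4 the count was 28. PTZ 4 was the highest exposed library for 49 of the 97 genes and PTZ+Q808 4 the lowest for 29. Each exposed group thus held libraries at the high and at the low end. The median difference from the control mean over the 97 genes ran from 0.09 in PTZ+Q808 4 to 1.06 in PTZ 4, and over the 4 controls from -0.12 in control 1 to 0.11 in control 3. In bulk tissue, fewer responding cells and less RNA per cell cannot be told apart.

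**Figure D3:**
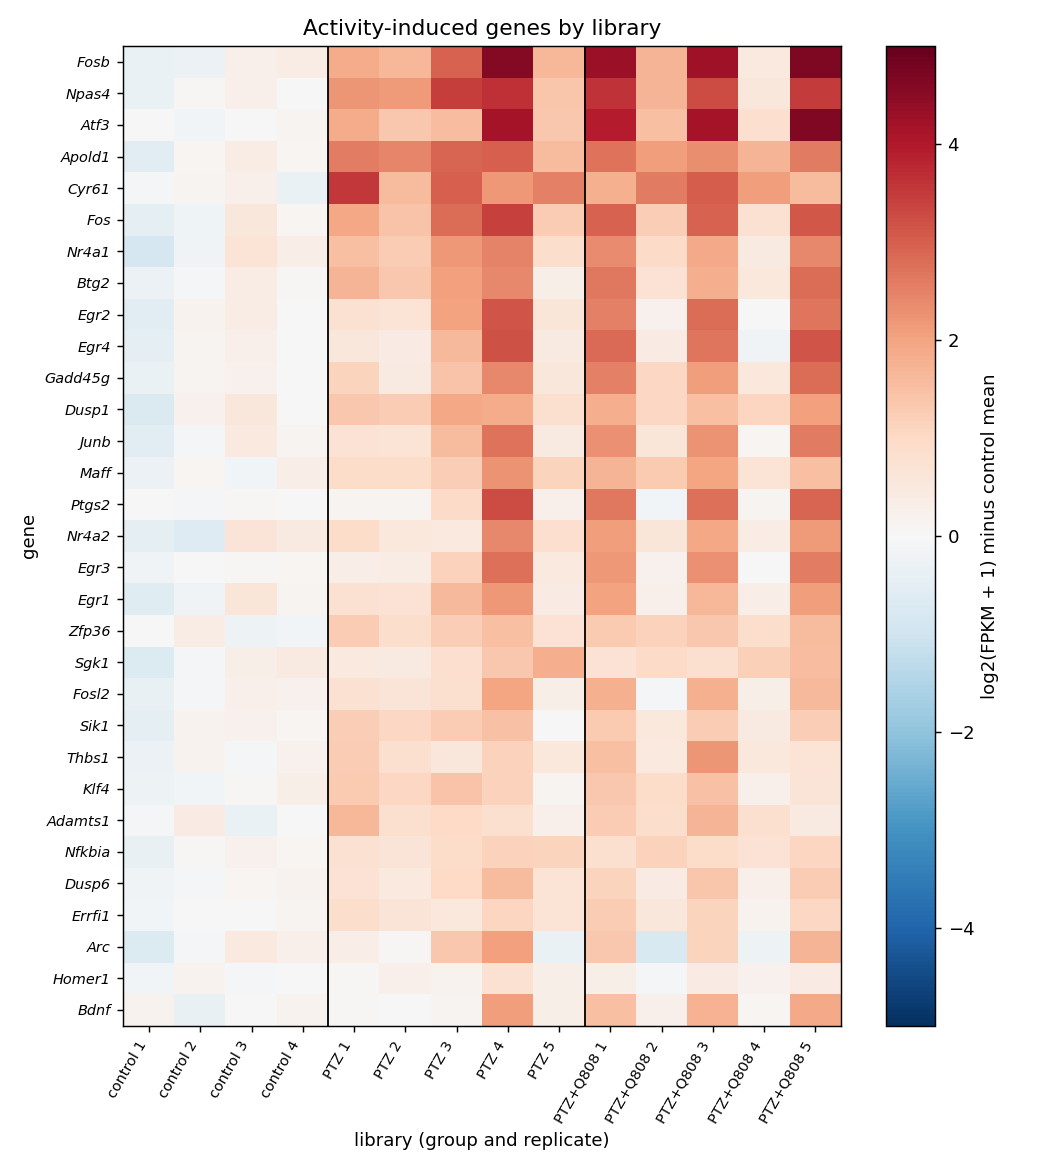
Log2(FPKM + 1) minus the control mean (colour) of 31 activity-induced genes (rows) in the 14 libraries (columns, groups parted by lines). PTZ 4, PTZ+Q808 1, PTZ+Q808 3 and PTZ+Q808 5 are red for most genes, and PTZ+Q808 4 is pale for most. Apold1, Cyr61, Dusp1, Zfp36 and Nfkbia lie above the control mean in all 10 exposed libraries, in some of them with a pale tint.

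Growth arrest genes, which slow the cell cycle or answer damage in dividing cells, were all positive (10 of 10, median 0.48) with 0 called in limma and 5 at an unadjusted p under 0.05. Gadd45g was above all controls in 10 of 10 exposed libraries (16.7 to 87.7 against 9.19 to 14 FPKM, log2 change 1.5, adjusted p = 0.114). Btg2, which encodes an antiproliferative protein, was above them in 9 of 10 (1.63, adjusted p = 0.0987).

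Vascular response genes held 2 called members of 14 tested, Apold1 and Cyr61, with 12 positive values and a median of 0.24. Adamts1, a secreted metalloprotease gene, was above every control in 9 of 10 exposed libraries (0.96, adjusted p = 0.0842), and Thbs1, encoding thrombospondin 1, in 10 of 10 (2.21 to 9.63 against 0.9 to 1.65 FPKM, 0.98, adjusted p = 0.114). Ctgf, a relative of Cyr61, overlapped with the controls in 7 exposed libraries (0.77, adjusted p = 0.171). Levels of vessel and meningeal markers are given beside these genes. Endothelial markers were positive for 6 of 7 with a median of 0.08, and their summed level was 122 to 147 FPKM in controls and 119 to 169 in exposed libraries. Pericyte and smooth muscle markers summed to 55.8 to 98.4 FPKM in controls and 61.0 to 174 in exposed libraries. Meningeal and fibroblast markers were positive for 10 of 10 (median 0.53, 0 called in limma, 1 at an unadjusted p under 0.05), at 74.2 to 143 FPKM in controls and 91.6 to 328 in exposed libraries. Their part in the vascular genes was not tested.

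GABA-A receptors, the target of PTZ, are pentamers built mostly of alpha, beta and gamma or delta subunits. Gabrb2, which encodes a beta subunit (25451), rose. It was 13.6, 18.6, 14.7 and 13.4 FPKM in controls and 18.7 to 26 FPKM, median 21.2, in exposed libraries. Its groups were parted by a narrow margin, since control 2 (18.6) came close to PTZ 1 (18.7), and the log2 change was 0.51 ± 0.09 (SE, adjusted p = 0.0289). The ratio of mean FPKM was 1.45. The Gabrb2 call ended without control 1, control 3, control 4 or PTZ 2 (adjusted p 0.052 to 0.177), and without the 3 Ttr-low libraries (0.48, adjusted p = 0.227).

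Of 15 GABA-A subunit and anchoring genes tested 13 had positive values, with a median of 0.16. Of the 15, 2 were called, and 5 were higher and 1 lower at an unadjusted p under 0.05. Over all genes tested 0.149% were called, 8.37% were higher and 8.39% lower at that level, and 44.6% were positive. Gabra2, an alpha subunit gene, had a value of 0.27 (adjusted p = 0.216). Gabrd, the delta subunit of extrasynaptic receptors on granule cells, had a value of -0.36 (adjusted p = 0.283). In 12 genes of GABA synthesis, transport, chloride balance and GABA-B receptors, 4 values were positive and 0 were called in limma (0 higher and 2 lower at an unadjusted p under 0.05). The vesicular GABA transporter gene Slc32a1 was -0.33 (adjusted p = 0.123) and Gad1 -0.12 (adjusted p = 0.237). Slc32a1 was 58.6 FPKM in control 2, the library highest in striatal markers, and 37.9 to 40.8 FPKM in the other controls. It was under every control in 8 of 10 exposed libraries (31.4 to 39.3 FPKM).

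Subunits of AMPA receptors, which carry fast excitation, did not pass but 2 were near the threshold. Gria3 was 29.7, 30.1, 32.5 and 30.4 FPKM in controls and 31.0 to 41.2 FPKM, median 39.0, in exposed libraries, with PTZ 1 alone inside the control range (log2 change 0.31, adjusted p = 0.0548). Gria2 was 59.1 to 64.3 FPKM in controls and 63.9 to 88.4 in exposed libraries (0.34, adjusted p = 0.0755). Both passed without PTZ 1 or PTZ 3 (adjusted p 0.00307 to 0.0371 for Gria3 and 0.0307 to 0.031 for Gria2). Gria1 had a value of -0.05 (adjusted p = 0.816). Over 12 AMPA receptor genes 8 values were positive (median 0.06). Lists of 6 NMDA, 7 kainate and 7 metabotropic glutamate receptor genes had medians of 0.04, 0.06 and 0.11 with 0 called in limma and 0, 1 and 1 higher at an unadjusted p under 0.05. Over all genes tested 8.37% were higher at that level.

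Levels of tissue markers are given beside these receptor genes. Neocortical markers were positive for 10 of 12 (median 0.27) and summed to 137 to 210 FPKM in controls and 161 to 253 in exposed libraries. This marker list includes Nr4a2 (log2 change 1.23) and Ctgf (0.77), which are also in the early response lists. In PTZ 4, where the sum was highest, they held 59.1 and 25.4 FPKM. In control 1, where it was lowest, they held 7.49 and 4 FPKM. The sum is thus not a measure of regional content alone. CA1 markers were positive for 6 of 8 (median 0.14), at 298 to 425 FPKM in controls and 349 to 447 in exposed libraries. Striatal markers were positive for 0 of 9 (median -0.69), and without control 2 that median was 0.02. The median of the GABA-A list was 0.12 without control 2 and 0.05 without control 2, control 3, PTZ 2, PTZ+Q808 1 and PTZ+Q808 3, where Gabrb2 had a value of 0.60 (adjusted p = 0.0908). The part of regional content in the receptor genes was not tested.

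Another 5 genes rose by less than 0.5 on the log2 scale. Rock2 encodes a serine/threonine kinase that acts on actin and myosin (25537). It was 21.9, 22.9, 22 and 23 FPKM in controls and 26.3 to 33.6 FPKM, median 30.6, in exposed libraries. Controls were close together and every exposed library was above them, with a log2 change of 0.42 ± 0.06 (SE, adjusted p = 0.0153). Rb1cc1 encodes FIP200, a scaffold of the kinase complex that starts autophagy (312927), and held 6.39 to 7.55 FPKM in controls and 8.03 to 11.1 FPKM in exposed libraries (0.45 ± 0.07, adjusted p = 0.0241). Eea1 encodes a tether of early endosomes (314764), and held 3.54 to 4.24 FPKM in controls against 4.75 to 6.92 FPKM (0.47 ± 0.08, adjusted p = 0.0299). Rasa1 encodes a GTPase-activating protein that switches off Ras (25676), and held 10.1 to 11.6 FPKM in controls against 12.1 to 15.9 FPKM (0.34 ± 0.06, adjusted p = 0.0299). Bclaf1 encodes a nuclear protein of mRNA processing (293017), and held 13.9 to 14.7 FPKM in controls against 15.6 to 21.1 FPKM (0.38 ± 0.07, adjusted p = 0.039). For all 5 the groups did not overlap.

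These calls lay close to the threshold. The Rock2 call ended without control 1 or control 3 (adjusted p 0.0554 to 0.11) and the Rb1cc1 call without control 1, control 3 or control 4 (0.0962 to 0.139). The Eea1 call ended without control 1, control 3, control 4, PTZ 2, PTZ+Q808 1 or PTZ+Q808 4 (0.053 to 0.165), and the Rasa1 call without any of these or PTZ+Q808 5 (0.053 to 0.165). The Bclaf1 call stood without PTZ 1 or PTZ 3 and ended without any 1 of the other 12 libraries (0.0547 to 0.177). With no filter on low values the Eea1 and Bclaf1 calls also ended. All 5 calls ended without the 3 libraries low in Ttr, with adjusted p of 0.209 for Rock2, 0.227 for Rb1cc1, 0.229 for Eea1, 0.233 for Rasa1 and 0.256 for Bclaf1. Without the 5 libraries the adjusted p was 0.67 for each, and the log2 changes were 0.34 to 0.45.

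Lists of protein turnover and RNA processing had small positive medians. All 25 ubiquitin ligase and deubiquitinase genes tested were positive with a median of 0.12, 0 were called in limma and 8 were higher at an unadjusted p under 0.05. Usp9x, a deubiquitinase gene, was above every control in 10 of 10 exposed libraries (22.3 to 29.5 against 18.8 to 21.9 FPKM, log2 change 0.27, adjusted p = 0.104). Of 30 splicing factors 20 were positive (median 0.08), with 0 called in limma and 6 higher and 1 lower at an unadjusted p under 0.05. Srsf5, an SR protein gene, was above every control in 10 of 10 (97.5 to 165 against 81.2 to 94.6 FPKM, 0.52, adjusted p = 0.0923). Rsrp1, which encodes an arginine and serine rich protein, was under every control in 9 of 10 (43.3 to 84.4 against 62.4 to 85.8 FPKM, -0.42, adjusted p = 0.157). Of 17 translation factors 12 were positive (median 0.07), with 0 called in limma and 5 higher at an unadjusted p under 0.05. Over all genes tested 44.6% were positive, and 8.37% were higher and 8.39% lower at that level.

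Sox9, the transcription factor that specifies astrocytes and keeps neural stem cells, was lower in every exposed library (140586). It was 8.30, 7.15, 6.78 and 6.72 FPKM in controls and 2.86 to 5.11 FPKM, median 3.67, in exposed libraries. The highest exposed value was under the lowest control, and the log2 change was -0.77 ± 0.12 (SE, adjusted p = 0.0153). The ratio of mean FPKM was 0.536. Hhex, a homeobox repressor gene (79237), was 1.36, 2.41, 1.49 and 1.91 FPKM in controls and 0.668 to 1.09 FPKM, median 0.907, in exposed libraries. Its groups did not overlap either, and the log2 change was -0.54 ± 0.09 (SE, adjusted p = 0.0299). With a pseudocount of 0.1 the Hhex value was -0.88, and the ratio of mean FPKM was 0.508. The Sox9 call ended without control 1 or control 3 (adjusted p 0.0554 to 0.123). The Hhex call ended without any 1 of the 4 controls and without PTZ 2, PTZ 4, PTZ+Q808 1, PTZ+Q808 4 or PTZ+Q808 5 (0.0506 to 0.127). Both calls also ended without the 3 libraries low in Ttr, at -0.78 for Sox9 and -0.57 for Hhex (adjusted p = 0.209 for each). Without the 5 libraries the values were -0.78 and -0.45 (adjusted p = 0.67 for each).

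Sox9 and Hhex were the 2 called among 16 glial and progenitor transcription factors, of which 6 had positive values (median -0.20). Over all genes tested 0.0392% were called lower and 44.6% were positive. The list was chosen with earlier results of these data known, so its counts are no independent support. Hes5, a Notch effector of progenitors and astrocytes, had a larger difference than Sox9 or Hhex. It was 12.3, 11.8, 8.55 and 14.1 FPKM in controls and 1.73 to 7.59 FPKM, median 5.23, in exposed libraries. All 10 exposed values were under all controls, the log2 change was -1.20 ± 0.26 (SE, adjusted p = 0.0719), and the gene passed without PTZ 1 (adjusted p = 0.0443). The oligodendrocyte factors Sox8 and Sox10 had values of -0.36 (adjusted p = 0.135) and -0.37 (adjusted p = 0.177), and Sox2 -0.26 (adjusted p = 0.2). Id2, a dominant negative helix-loop-helix gene, was above every control in 10 of 10 exposed libraries (0.30, adjusted p = 0.0788), and Olig2 had a value of 0.27 (adjusted p = 0.192).

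Astrocyte genes with structural and transport roles differed less than Sox9. Of 15 tested 4 were positive, the median was -0.07, 0 were called in limma and 1 was lower at an unadjusted p under 0.05. Their summed level was 4832 to 5265 FPKM in controls and 4386 to 5884 in exposed libraries. Aldh1l1 had a value of -0.29 (adjusted p = 0.23). Myelinating oligodendrocyte markers were positive for 1 of 12 (median -0.30, 0 called in limma, 1 lower at an unadjusted p under 0.05), and summed to 3964 to 7802 FPKM in controls and 2902 to 6193 in exposed libraries. Without control 2 the myelin median was -0.17 and the median of the glial transcription factors was -0.13.

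In the Wnt pathway, which also acts on progenitors, 19 genes were tested, 6 were positive, the median was -0.09 and 0 were called in limma (4 lower at an unadjusted p under 0.05). Over all genes tested 8.39% were lower at that level and 44.6% were positive. Axin2, a feedback inhibitor and Wnt target, was 5.77 to 6.83 FPKM in controls and 3.12 to 5.42 in exposed libraries, lower in 10 of 10 (log2 change -0.51, adjusted p = 0.0987). Mycn was 3.28 to 3.97 FPKM in controls and 1.30 to 2.89 in exposed libraries, also lower in 10 of 10 (-0.53, adjusted p = 0.0595). Axin2 passed without PTZ 3 (adjusted p = 0.047) and Mycn without PTZ 1, PTZ 3 or PTZ+Q808 5 (adjusted p 0.036 to 0.0393).

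Slc25a1, the mitochondrial carrier that exports citrate for sterol and fatty acid synthesis (29743), fell. It was 27.2, 28.9, 26.3 and 24.3 FPKM in controls and 19.1 to 22.9 FPKM, median 20.7, in exposed libraries. The groups did not overlap, PTZ 1 was the highest exposed library, and the log2 change was -0.34 ± 0.05 (SE, adjusted p = 0.0153). The call ended without control 1 or control 3 (adjusted p 0.0554 to 0.123), without the 3 Ttr-low libraries (-0.34, adjusted p = 0.209) and without the 5 (-0.28, adjusted p = 0.67). It was the 1 called among 25 genes of sterol and fatty acid synthesis, of which 3 had positive values (median -0.14) and 11 were lower at an unadjusted p under 0.05. Over all genes tested 0.0392% were called lower, 8.39% were lower at that level and 44.6% were positive. Fdft1, encoding squalene synthase, was 42.0 to 49.7 FPKM in controls and 35.0 to 40.5 in exposed libraries (-0.25, adjusted p = 0.0548). Dhcr7, which makes cholesterol from its last precursor, was 12.3 to 13.9 FPKM in controls and 9.77 to 11.8 in exposed libraries (-0.26, adjusted p = 0.0627). Both were under all controls in 10 of 10 exposed libraries and passed without PTZ 1 or PTZ 3 (adjusted p 0.03 to 0.0393 for Fdft1 and 0.039 to 0.0492 for Dhcr7). Fasn, encoding fatty acid synthase, was also under all controls in 10 of 10 (-0.24, adjusted p = 0.2), and Idi1, an isomerase gene of sterol synthesis, had a value of 0.36 (adjusted p = 0.293). Myelin is rich in sterols, and the lower myelin marker values given above accompany this list; their part in it was not tested.

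RGD1562618 (501007), named Insyn1 in RefSeq, carries a placeholder symbol and was named here after its values were seen. It was 65.8, 66.8, 62.1 and 62.0 FPKM in controls and 49.6 to 57.7 FPKM, median 53.8, in exposed libraries, and the groups did not overlap. The log2 change was -0.25 ± 0.04 (SE, adjusted p = 0.0243), the smallest change among the called genes. The call ended without any 1 of the 4 controls or PTZ 2 (adjusted p 0.052 to 0.165), without the 3 Ttr-low libraries (0.209) and without the 5 (0.67).

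Immune, hormonal and stress lists come next. Ifit3, an interferon-induced gene, was above every control in 9 of 10 exposed libraries (1.08 to 6.16 against 0.574 to 1.09 FPKM, log2 change 1.14, adjusted p = 0.061), and passed without PTZ 1, PTZ 3 or PTZ+Q808 4 (adjusted p 0.0164 to 0.0463). Among controls Ifit3 reached 1 FPKM in control 2 alone, so it met the filter only with exposed libraries. The interferon list it belongs to had 3 positive values of 16 and a median of -0.08. Of 19 inflammatory cytokine and chemokine genes listed, 9 passed the filter. All 9 were positive (median 0.25), with 0 called in limma and 3 at an unadjusted p under 0.05. Ccl2, a monocyte attractant, was 0 to 0.15 FPKM in controls and 0.146 to 2.33 in exposed libraries (0.80, adjusted p = 0.11). It met the filter of 1 FPKM in at least 4 libraries through exposed libraries alone. The filter thus partly sets the sign of scarce genes, and the count of positive values in this list is no support for a rise. Of 14 glucocorticoid-induced genes 10 were positive (median 0.23), and the kinase gene Sgk1 was above every control in 10 of 10 exposed libraries (42.0 to 108 against 18.3 to 41.8 FPKM, 1.01, adjusted p = 0.0799). Circadian genes were positive for 12 of 16 (median 0.10), among them Per1 at 0.80 (adjusted p = 0.15). Heat shock chaperones were positive for 7 of 13 (median 0.00), and Hsp90aa1 had a value of 0.65 (adjusted p = 0.113) that passed without PTZ 3 (adjusted p = 0.039).

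Lists of channel, release and adhesion genes had no called member in limma. Medians were -0.01 for 8 sodium, 0.02 for 15 calcium and 0.03 for 27 potassium and HCN channel genes, 0.05 for 26 genes of synaptic vesicle release and 0.06 for 20 synaptic adhesion and scaffold genes. The numbers higher at an unadjusted p under 0.05 were 1, 3, 1, 4 and 5, and those lower 0, 2, 1, 0 and 0. Over all genes tested 8.37% were higher and 8.39% lower at that level. Cacna2d1, an auxiliary calcium channel subunit and the target of gabapentin, was above every control in 9 of 10 exposed libraries (26.9 to 39.2 against 24.5 to 27.1 FPKM, 0.37, adjusted p = 0.0788). It passed without PTZ 1 or PTZ 3 (adjusted p 0.0327 to 0.0341). Lrrtm3, a synaptic adhesion gene, was above every control in 10 of 10 (8.67 to 12.4 against 6.87 to 8.48 FPKM, 0.37, adjusted p = 0.0755) and passed without PTZ 1 (adjusted p = 0.0351). Microglial markers were positive for 5 of 10 (median 0.01).

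The called genes were also read in each exposed group against the same 4 controls, in a fit with 3 groups. These comparisons share their controls, so the values are set side by side without a test of likeness. PTZ against control gave 4 calls (0.0314%) and PTZ+Q808 against control 366 (2.87%). The 4 were Apold1, Cyr61, Zfp36 and Nfkbia. The other 13 called genes named here had an adjusted p of 0.0836 to 0.239 in PTZ against control, and all 17 passed in PTZ+Q808 against control (adjusted p 0.00823 to 0.0226). In this order the log2 changes were 2.50 and 2.29 for Apold1, 2.56 and 2.21 for Cyr61, 1.46 and 1.49 for Dusp1, 1.12 and 1.25 for Zfp36, and 0.92 and 0.93 for Nfkbia. For the genes with small changes they were 0.42 and 0.60 for Gabrb2, 0.36 and 0.48 for Rock2, and 0.29 and 0.47 for Bclaf1. For the lower genes they were -0.81 and -0.73 for Sox9, -0.50 and -0.57 for Hhex, and -0.32 and -0.35 for Slc25a1. The difference between the exposed groups was 0.18 ± 0.08 (SE) for Gabrb2 and 0.17 ± 0.06 for Bclaf1, both with an unadjusted p under 0.05 (adjusted p = 0.801 and 0.76). It was 0.00 ± 0.12 for Nfkbia and 0.04 ± 0.50 for Fos. These values do not show that the exposed groups are alike.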

How the data were processed

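Transcripts of hippocampal tissue were measured by RNA sequencing in 14 libraries from rats, with mRNA captured on beads from TRIzol extracts and a BGI T7 instrument as the sequencer per the labels. The deposited values are FPKM, which the authors computed per gene and library. HISAT2, Bowtie2, StringTie, Cufflinks, HTSeq, DESeq, SAMtools and Trimmomatic are named in the submitters' processing notes without role or version, and the genome build of the files was not given in the sources used here. Raw counts were not used here, so depth is unknown and no counting interval can be given. Of 22601 gene identifiers, 20633 matched the RefSeq table, and 12 symbols that a spreadsheet had turned into dates were read through their identifiers.

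Values were transformed as log2(FPKM + 1), which shrinks changes of low genes, and genes at 1 FPKM or more in at least 4 libraries were tested. A scarce gene can pass this filter through the exposed libraries alone. The main fit compared 10 exposed with 4 control libraries in limma 3.58.1 (R 4.3.3), with a mean-dependent prior variance, 12 residual degrees of freedom and two-sided p-values with Benjamini-Hochberg adjustment over 12744 genes. A fit with 3 groups (11 residual degrees of freedom) gave the difference between the exposed groups. Calculations were checked on simulated data. Tables and figures were made with Python 3.11.15, pandas 2.3.3 and matplotlib 3.10.9.

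The compared groups and 54 gene lists (37 pathway and 17 marker lists, 740 of 750 entries matched) were chosen with earlier results of these data known. Lists are described by counts and medians and were not tested. Genes were named by rule: the 15 highest and 15 lowest changes among called genes without overlap and the 10 called genes of smallest p per direction, leaving out placeholder symbols, up to 5 called members of each list, and members of the early response lists. A few genes that meet these rules, 2 of them called, are not reported here. Other genes that were not called were named from the lists after their values were seen. Alternatives were a pseudocount of 0.1, other filters, 3 scalings, a fit with 3 groups, weights per library, a robust prior, a replicate block, a term for Y-linked transcripts, 2 other thresholds, leaving out each library in turn, and leaving out 3 or 5 libraries with an uneven content of other tissue.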

Additional observations from a re-analysis of the deposited data

Results flagged for a closer look

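A library was singled out where its gap to the nearest library of its group took up more of the group's range than Dixon's critical value for groups of 4 or 10 allows. This was examined in 196 groups and met 10 times, and chance meets it in about 1 group in 20. Among called genes, control 4 stood apart from the other controls for Tmem252 (1.28 FPKM). Among genes of the lists, PTZ+Q808 2 was low among the exposed libraries for Fasn (29.3 FPKM), PTZ 1 was low for Gria3 (31.0 FPKM), PTZ+Q808 5 was low for Mycn (1.30 FPKM) and PTZ 4 was high for Rsrp1 (84.4 FPKM). Control 2 was high for Slc32a1 (58.6 FPKM) and control 1 low for Hsp90aa1 (12.3 FPKM) among the controls. For transcripts of other tissue, control 3 was low for Ttr (54.5 FPKM), control 2 was high for Drd2 (29.4 FPKM) and PTZ+Q808 3 was high for Gh1 (206 FPKM).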

How the results depend on the processing

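The 17 called genes reported here kept their direction in every fit run, and their log2 changes stayed between 0.811 and 1.653 times the main value, the upper end with a pseudocount of 0.1. The calls themselves did not hold as well. The count of 19 became 79 with 3 groups, 403 with weights per library and 66 with a term for Y-linked transcripts. Such transcripts were detected in 8 libraries, 2 of the 4 controls and 6 of the 10 exposed, so both groups were mixed in this respect. With no filter on low values the count was 18, and the calls of Bclaf1, Eea1, Maff and Tmem252 ended. The count was 4 without the 3 libraries low in Ttr. Without the 5 libraries with an uneven content of other tissue the count was 0, with 873 genes at an unadjusted p under 0.05 in limma. It was 4 at an adjusted p under 0.01 and 153 under 0.10, and 4 to 134 when 1 library was left out. Apold1, Cyr61 and Nfkbia were kept in 26 of 27 alternatives, and Bclaf1 in 11. The cause of the shifts was not tested, though fewer libraries leave fewer degrees of freedom. With a replicate block 3 genes passed (Apold1, Cyr61 and Nfkbia), and the calls of the other 14 of these 17 genes ended. Whether replicate numbers mark a pairing is not known. Of 13 same-numbered pairs, 2 had correlated deviations over 0.1 (range -0.280 to 0.143). Different-numbered pairs spread more widely, from -0.447 to 0.385, so these correlations cannot exclude a pairing or batch by number. The difference between PTZ+Q808 and PTZ gave 2 calls, Elane and Mpo, with no filter on low values, both named after their values were seen. The number of genes without overlap was 193 with all libraries, 414 without the libraries low in Ttr and 1049 without the 5. It was 200 to 496 with 1 library left out. Fewer libraries cannot widen a group's range, so for the same genes a rise of this number says nothing of the libraries removed. Depth is unknown, so counting error could not be separated from the spread between libraries.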
